A study of Mus musculus with 18 samples.

Results

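The data describe 38 skeletal muscle genes in mouse mammary glands. The genes were taken by symbol from the 23337 rows of the count table as known genes of the sarcomere, of calcium handling and of muscle energy metabolism. The rule uses no measured value, but the genes were chosen with earlier results of these data known. All 38 genes were present in the table, and all 38 passed the filter on low counts that left 15482 genes. RNA was sequenced from glands of WT mice and of Cip2a-/- mice, both on a mixed C57BL/6Jx129 background, with 3 libraries in each of 6 groups and 18 libraries in all. Untreated glands came from mice given no treatment and, like the treated mice, have no age at collection in the labels. Treated mice of both genotypes received 1 mg of DMBA, a polycyclic hydrocarbon that causes mammary and other tumours, dissolved in oil by gavage, once a week in 6 doses that began at 12 to 14 weeks of age. Their glands were taken either 2 weeks after dose 6 or at the endpoint, when a mouse had to be killed for a DMBA-induced tumour in any tissue and its gland was free of tumour. Lymph nodes were removed, per the labels' protocols, and no protocol mentions muscle. Cip2a, which encodes an inhibitor of the phosphatase PP2A, is the gene missing in the Cip2a-/- mice; the labels do not say in which cells or how it was deleted. Each library's label carries a number of its own, but the labels do not say whether the 3 libraries of a group came from separate mice. The p-values below therefore measure the spread between these samples.

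A sarcomere is the contractile unit of a muscle fibre: thick filaments of myosin pull on thin filaments of actin when calcium binds the troponin complex, and titin and the proteins of the Z disc hold the filaments in register. Calcium is released from the sarcoplasmic reticulum through the ryanodine receptor and pumped back by a calcium ATPase, while creatine kinase, glycogen phosphorylase and glycolytic enzymes supply the energy. Fibre types differ in their myosin heavy chain: Myh7 marks slow type I fibres, and Myh2, Myh1 and Myh4 mark the fast types IIa, IIx and IIb. In the mouse, several mammary glands lie on the thin panniculus carnosus muscle of the skin or next to muscles of the body wall.

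Total counts ran from 16121743 to 24586404 per library. Levels are given as CPM, read counts scaled to library size with edgeR's TMM factors, and where a group's values are listed, they stand in the order of libraries 1, 2 and 3. Cip2a followed the labels: its level was between 0.831 and 4.88 CPM in the 9 WT glands, and at most 0.0598 CPM in the Cip2a-/- glands. A count of 0 in a library allows up to 3 reads, which is a level between 0.116 and 0.206 CPM depending on the library. In whole tissue, fewer muscle fibres and less RNA per fibre cannot be told apart.

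The muscle genes took a very different share of the reads from gland to gland, including glands of the same group. The 38 genes held 5.04%, 0.892% and 0.0315% of all reads in the 3 untreated WT glands, and 2.37%, 0.0192% and 1.19% in the untreated Cip2a-/- glands. At 2 weeks after DMBA, they held 0.0387%, 0.349% and 1.15% in WT glands, and 10.2%, 0.0417% and 0.0226% in Cip2a-/- glands. At the endpoint, the share was 6.35%, 0.0137% and 0.367% in WT glands, and 0.0208%, 0.0177% and 0.0665% in Cip2a-/- glands. The gland with the highest share, Cip2a-/- 2-week library 1, had 748 times that of the gland with the lowest, WT endpoint library 2. In WT endpoint library 2, Eno3, Myl1 and Ldb3 had 845, 583 and 272 of the 3139 reads, and Ckm had 24. Eno3, Myl1 and Ldb3 never fell below 16.995, 22.6 and 6.49 CPM in any gland. Whether muscle alone gave the lowest shares was not tested. Within a group the ratio of the highest to the lowest share was 160 in untreated WT, 124 in untreated Cip2a-/-, 29.8 in 2-week WT, 452 in 2-week Cip2a-/-, 465 in endpoint WT and 3.74 in endpoint Cip2a-/- glands. Every group thus contained at least 1 gland under 0.1%, and the endpoint Cip2a-/- group contained no gland above it. Counting error was small against these differences: the exact 95% interval (Clopper-Pearson) of the lowest share ran from 0.0132% to 0.0141%, and that of the highest from 10.201% to 10.231%. These intervals, like all intervals and floors given here, cover counting error only, as the reads carry no molecular identifiers and may be copies of 1 molecule. As group means, the shares were 1.99% ± 2.68 (SD, n = 3) in untreated WT, 1.19% ± 1.18 (SD, n = 3) in untreated Cip2a-/-, 0.514% ± 0.576 (SD, n = 3) in 2-week WT, 3.43% ± 5.88 (SD, n = 3) in 2-week Cip2a-/-, 2.24% ± 3.56 (SD, n = 3) in endpoint WT and 0.0350% ± 0.0273 (SD, n = 3) in endpoint Cip2a-/- glands. In 4 of the 6 groups the SD exceeded the mean, and in no pair of groups compared here did the 3 glands of one group lie apart from the 3 of the other.

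**Figure D1:**
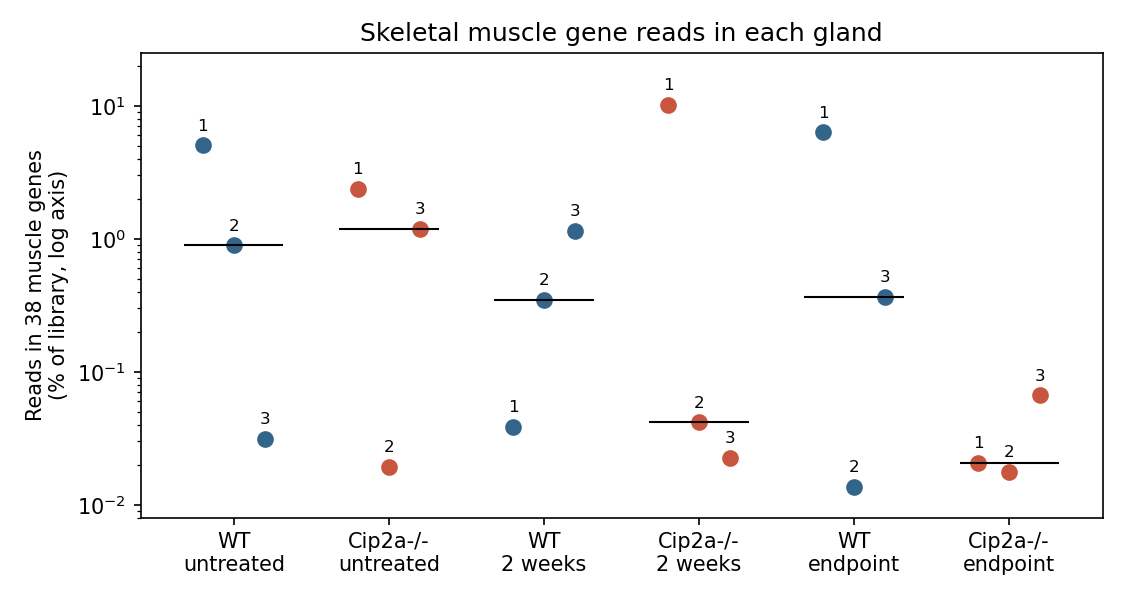
Share of each library's reads that fell in the 38 skeletal muscle genes, in percent on a log axis, by group; each point is 1 library with its number, WT in blue and Cip2a-/- in red, and the black line is the group's median. The points run from 0.0137% to 10.2%, and each group except the endpoint Cip2a-/- glands, which lie between 0.0177% and 0.0665%, spans more than 1 step of the log axis.

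Most of the genes varied together, and most of the slow fibre genes, which had few reads, did so less. The within-group SD of log2 CPM had a median of 3.88 over the 38 genes, against 0.407 over all genes tested, and 36 of the 38 genes lay above the 95th percentile of all genes. The highest level of 32 genes was in Cip2a-/- 2-week library 1. Of the other 6, the 5 slow fibre genes Myh7, Myl2, Myl3, Tnnc1 and Tnni1 were highest in Cip2a-/- untreated library 1, and Myh2 was highest in WT endpoint library 1. The lowest levels lay mostly in WT endpoint library 2 and Cip2a-/- endpoint library 2. After each gene's group means were removed, Pgam2, Myoz1 and Atp2a1 followed the mean of the 38 genes, themselves included, most closely over the 18 libraries, with Pearson's r of 0.997, 0.992 and 0.990. This was computed for the 32 genes with a mean of at least 5 CPM, and the lowest of them was Myh2, at 0.904. The other 6, the slow fibre genes, gave 0.922 for Tnnt1, 0.872 for Myl2, 0.762 for Myh7, 0.734 for Myl3, 0.702 for Tnni1 and 0.396 for Tnnc1. Their mean levels ran only from 0.887 CPM for Tnni1 to 3.87 CPM for Myh7, and the part of counting noise in their r was not tested. Their summed level was 3.82 CPM in Cip2a-/- untreated library 3 and 3.71 CPM in WT untreated library 3, although the 38 genes summed to 11209 and 308 CPM there. Among genes outside the 38, those that followed it most closely included Cmya5, Myom2, Art1, Nctc1, Fbxo40, Myot, Eef1a2, Kbtbd10, Fitm1, Mylk2 and Asb15, with r between 0.990 and 0.997. Myom2 encodes an M band protein, and Mylk2 encodes the skeletal muscle myosin light chain kinase. In all, 134 of 11960 other genes with a mean of at least 5 CPM had an r above 0.9, and 47 of the 134 were on a list of other skeletal muscle genes. These r values share libraries and depth and are given as a description.

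**Figure D2:**
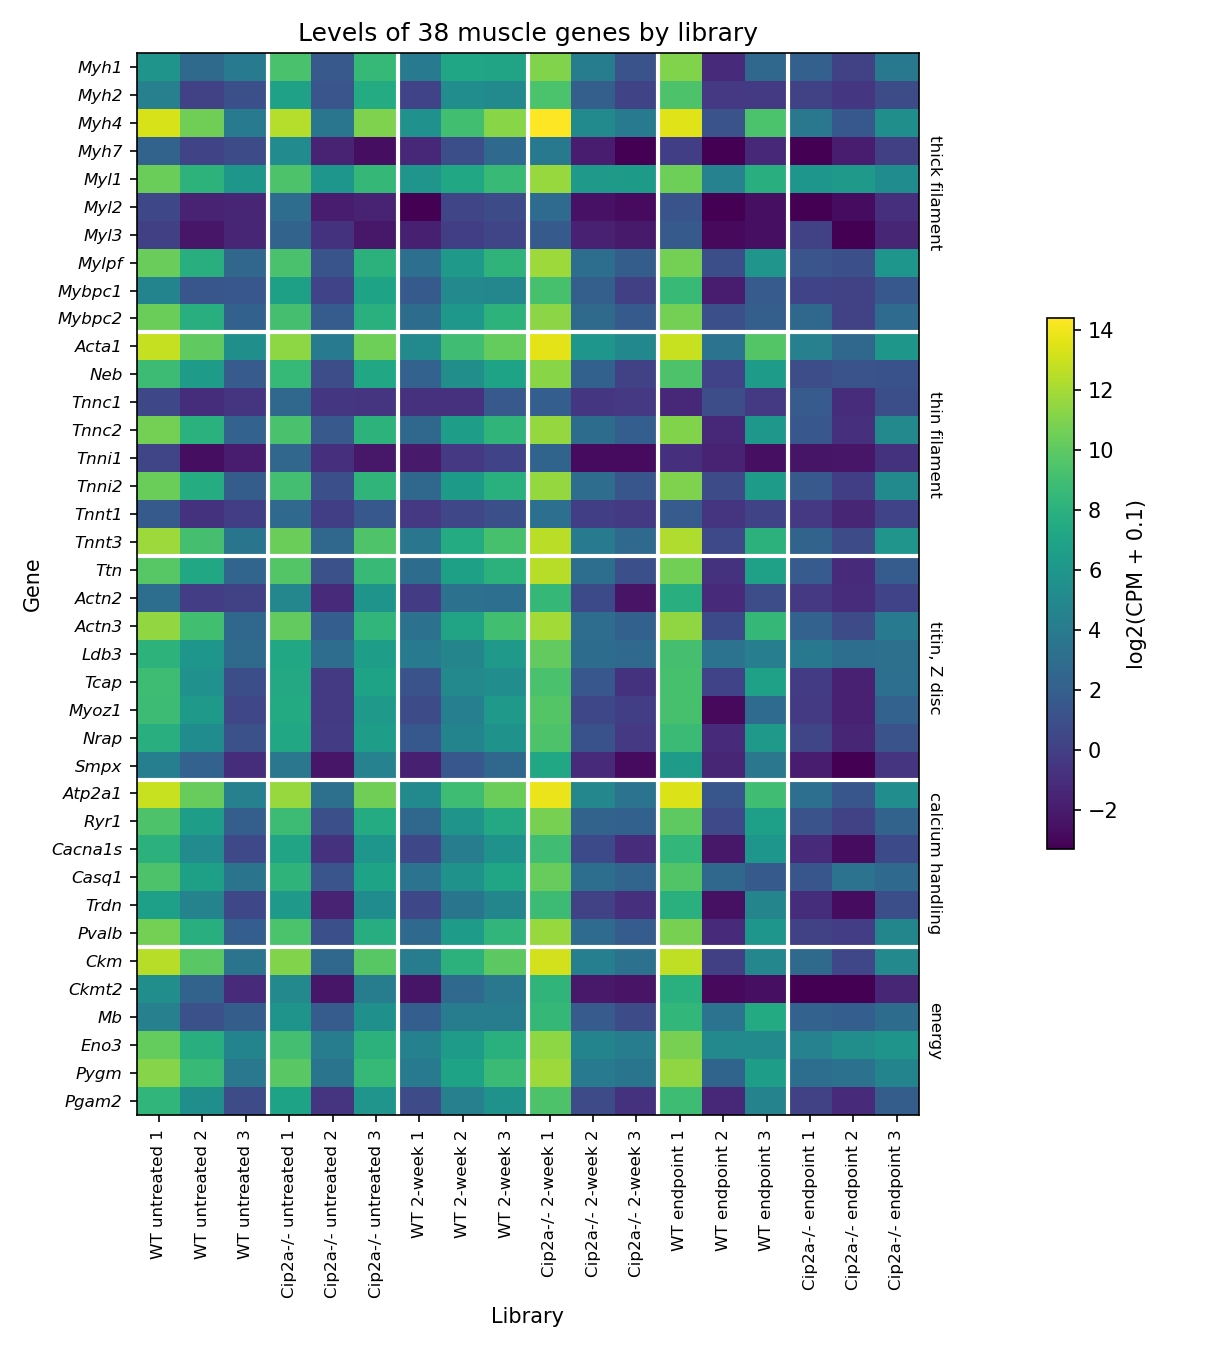
Level of each of the 38 genes (rows, grouped by role) in each of the 18 libraries (columns, grouped by genotype and time), as log2 of CPM plus 0.1. Bright columns are the glands with the most muscle RNA, such as Cip2a-/- 2-week library 1 and WT endpoint library 1, and the rows Myh7, Myl2, Myl3, Tnnc1, Tnni1 and Tnnt1, the slow fibre genes, stay dark in nearly every column.

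Other muscles were checked through their own markers. The 61 measured genes of the list of other skeletal muscle genes summed to between 718 and 21104 CPM over the libraries, again highest in Cip2a-/- 2-week library 1, where the 38 genes summed to 112887 CPM. The 12 genes of a heart muscle list summed to between 14.8 and 48.7 CPM in all libraries. Of these genes, Nppa was at 0 reads in every group except 2-week WT, and Nkx2-5 had at most 1 read in a library. Others were detected: Actc1 reached 21.5 CPM in Cip2a-/- 2-week library 1. Tnni3 reached 15.7 CPM in Cip2a-/- endpoint library 3, and Myl4 14.0 CPM in Cip2a-/- 2-week library 3. The 10 genes of smooth muscle and myoepithelium, a cell layer of the gland itself, summed to between 625 and 2785 CPM, with their highest value in Cip2a-/- endpoint library 1, a gland with 0.0208% of reads in the 38 genes.

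The 38 genes lie on 13 chromosomes, with 8 on chromosome 7 and 6 on chromosome 11, where Myh2, Myh1 and Myh4 follow each other between 67171027 and 67260446 (GRCm38, GENCODE). Exons of 16 of the 38 genes overlap exons of a gene on the other strand, among them Ckm, Ckmt2, Myh1, Myh2, Myh7, Atp2a1, Mb and Ttn. The libraries were prepared with a stranded kit, but the sources used here give no strand setting for the counting, so the counts of these 16 genes are uncertain. Of the 50-base stretches of the transcripts, 13.3% were shared with another adult fast heavy chain for Myh4, 21.7% for Myh1 and 22.3% for Myh2, against 0.201% for Myh7 with the 3 fast genes. Acta1 shared none with Actc1, the heart actin.

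Since most of the genes moved together, their promoters were searched for letters that muscle transcription factors are known to bind. RefSeq promoters (GRCm38.p6, from 250 bases before to 50 bases after the start) were at hand for 31 of the 38 genes, as 38 entries. The E-box CANNTG, bound by the MyoD family, was in 31 of 38 entries (81.6%) against 72.3% of all 32851 promoters, counting both strands. Its form CAGCTG, which is part of the first count, was in 20 of 38 (52.6%) against 16.3%. The MCAT letters CATTCC were in 12 (31.6%) against 14.7%, the TATA box letters TATAAA in 7 (18.4%) against 13.6%, the MEF2 motif in 5 (13.2%) against 3.19%, and the CArG box, bound by serum response factor, in 5 (13.2%) against 1.63%. A TATA box match can overlap a MEF2 match. The 4 promoters below are shown because the levels of their genes, given below, separate 1 gland from the others: Ckm and Mybpc2 were low there, while Acta1 and Myh4 were not. Capitals mark CANNTG matches, each sequence runs 5′ to 3′ along the gene, and the positions are chr7:19410844-19411143 (plus strand) for Ckm, chr7:44524620-44524919 (minus strand) for Mybpc2, chr8:123894726-123895025 (minus strand) for Acta1 and chr11:67237562-67237861 (plus strand) for Myh4.
Ckm: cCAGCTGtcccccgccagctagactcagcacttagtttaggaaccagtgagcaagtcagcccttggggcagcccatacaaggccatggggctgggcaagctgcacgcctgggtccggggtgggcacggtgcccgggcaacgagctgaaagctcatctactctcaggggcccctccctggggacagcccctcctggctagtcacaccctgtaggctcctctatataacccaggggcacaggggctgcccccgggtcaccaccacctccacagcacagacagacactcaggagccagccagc
Mybpc2: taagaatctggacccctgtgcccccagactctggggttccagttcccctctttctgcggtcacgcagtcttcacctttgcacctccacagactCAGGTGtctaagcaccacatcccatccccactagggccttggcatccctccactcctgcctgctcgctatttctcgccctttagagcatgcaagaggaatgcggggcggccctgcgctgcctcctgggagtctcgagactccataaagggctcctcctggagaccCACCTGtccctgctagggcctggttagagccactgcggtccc
Acta1: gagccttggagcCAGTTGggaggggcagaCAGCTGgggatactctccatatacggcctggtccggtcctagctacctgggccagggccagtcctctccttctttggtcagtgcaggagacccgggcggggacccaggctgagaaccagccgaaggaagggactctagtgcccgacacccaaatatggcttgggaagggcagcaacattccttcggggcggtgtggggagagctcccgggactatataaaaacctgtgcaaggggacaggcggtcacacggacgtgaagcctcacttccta
Myh4: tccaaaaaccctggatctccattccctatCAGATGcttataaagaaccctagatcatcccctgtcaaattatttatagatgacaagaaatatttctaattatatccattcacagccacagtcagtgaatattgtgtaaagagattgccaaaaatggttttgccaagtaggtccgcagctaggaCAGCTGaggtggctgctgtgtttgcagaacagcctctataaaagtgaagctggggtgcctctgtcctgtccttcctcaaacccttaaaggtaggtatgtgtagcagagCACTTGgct
The Ckm and Mybpc2 windows held 1 and 2 E-boxes and neither a MEF2 nor a CArG match. Acta1 held 2 E-boxes and a CArG match that began 73 bases before the start. Myh4 held 3 E-boxes, a CArG match 104 bases and a MEF2 match 182 bases before the start. Other genes set apart in that gland were split both ways. Casq1, Eno3 and Pygm, low there as a share of the muscle reads, had neither a CArG nor a MEF2 match, while Ldb3, also low, had a CArG match. Nrap, Ryr1, Cacna1s and Smpx, high there, had neither match. Actn3, Tcap and Trdn, also high, had no promoter at hand. These are matches of letters in a short window and no measure of binding, and their link to the levels was not tested.

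Among the thick filament genes, the fast heavy chain Myh4 was the most abundant heavy chain in all glands except WT untreated library 3. Its levels were 9969, 1497 and 15.7 CPM in untreated, 49.2, 516 and 2432 CPM in 2-week and 11492, 2.21 and 649 CPM in endpoint WT glands. For Cip2a-/- glands they were 5316, 12.2 and 1931 CPM untreated, 21180.5, 35.9 and 14.5 CPM at 2 weeks and 13.6, 2.85 and 44.3 CPM at the endpoint. Each group except the endpoint Cip2a-/- glands held at least 1 gland above 100 CPM, and the endpoint Cip2a-/- glands overlapped the WT glands of the same time through WT library 2. Myh1, the type IIx heavy chain, had 57.3, 6.87 and 16.6 CPM in untreated, 15.2, 142 and 128 CPM in 2-week and 2067, 0.348 and 6.00 CPM in endpoint WT glands. The Cip2a-/- values were 629, 2.97 and 369 CPM untreated, 2090.4, 17.4 and 2.23 CPM at 2 weeks and 4.16, 0.967 and 14.2 CPM at the endpoint. WT untreated libraries 1 and 2 were rich in Myh4 and poor in Myh1. Myh2, the type IIa heavy chain, had 21.3, 1.00 and 1.94 CPM in untreated, 1.06, 40.7 and 35.8 CPM in 2-week and 691, 0.658 and 0.695 CPM in endpoint WT glands. The Cip2a-/- levels of Myh2 were 114, 2.48 and 185 CPM untreated, 664, 3.98 and 1.11 CPM at 2 weeks and 1.00, 0.591 and 1.55 CPM at the endpoint. For Myh2 alone among the 38 genes, the endpoint Cip2a-/- glands did not overlap the untreated ones, a separation seen in 17.6% of all genes tested.

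Myh7, the slow heavy chain also used by the heart, had 4.77, 1.12 and 1.55 CPM in untreated, 0.289, 1.77 and 6.48 CPM in 2-week and 0.887, 0 and 0.316 CPM in endpoint WT glands. Its Cip2a-/- levels were 36.8, 0.220 and 0.0579 CPM untreated, 14.1, 0.169 and 0 CPM at 2 weeks and 0, 0.161 and 0.941 CPM at the endpoint. The untreated and endpoint WT glands did not overlap for Myh7, as for 16.3% of all genes tested. The regulatory light chain of fast fibres, Mylpf, was below Myh4 in every gland except Cip2a-/- endpoint library 3. Mylpf had 1265, 219.5 and 5.76 CPM in untreated, 8.57, 75.7 and 294 CPM in 2-week and 1653, 1.82 and 60.9 CPM in endpoint WT glands. Its Cip2a-/- values were 619.6, 2.31 and 269 CPM untreated, 3443, 8.21 and 3.66 CPM at 2 weeks and 2.41, 1.93 and 63.3 CPM at the endpoint. Of the remaining thick filament genes, the slow light chains Myl2 and Myl3 reached at most 7.89 and 4.78 CPM, and Mybpc1 and Mybpc2, the slow and fast myosin binding proteins C, ranged from 0.155 to 599.6 CPM and from 1.02 to 2467 CPM. Myl1, the fast essential light chain, differed from them at the low end: it never went below 22.6 CPM and was the gene with the most reads per kb of transcript in 8 of the 18 glands.

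The make-up of the heavy chains also differed between glands, and the glands with the highest Myh4 share were among those with more muscle RNA. It was taken per transcript length over Myh4, Myh1, Myh2 and Myh7 in the 16 libraries with at least 100 reads in these genes. Myh4 made up 44.2% to 99.4% (median 79.4%), Myh1 0.451% to 46.2% (median 14.6%), Myh2 0.0660% to 13.8% (median 3.77%) and Myh7 0% to 4.22% (median 0.156%). In 3 WT glands nearly all of the heavy chain was Myh4: 99.2% and 99.4% in untreated libraries 1 and 2, from 231756 and 26980 reads, and 98.9% in endpoint library 3, from 10386 reads. No other gland exceeded 93.5%, the share in WT 2-week library 3. At the other end, WT untreated library 3 had 44.2% Myh4 and 46.2% Myh1 from 645 reads. Its exact 95% interval for Myh4 as a share of reads was 40.0% to 47.8%. The 8 Cip2a-/- glands with at least 100 such reads had between 62.7% and 88.6% Myh4. Of the 2 libraries under 100 reads, WT endpoint library 2 had 57 reads of Myh4, 9 of Myh1, 17 of Myh2 and 0 of Myh7, and Cip2a-/- endpoint library 2 had 53, 18, 11 and 3. Because the 3 fast genes share sequence, and the sources used here do not tell how reads with several places were treated, these shares are estimates.

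**Figure D3:**
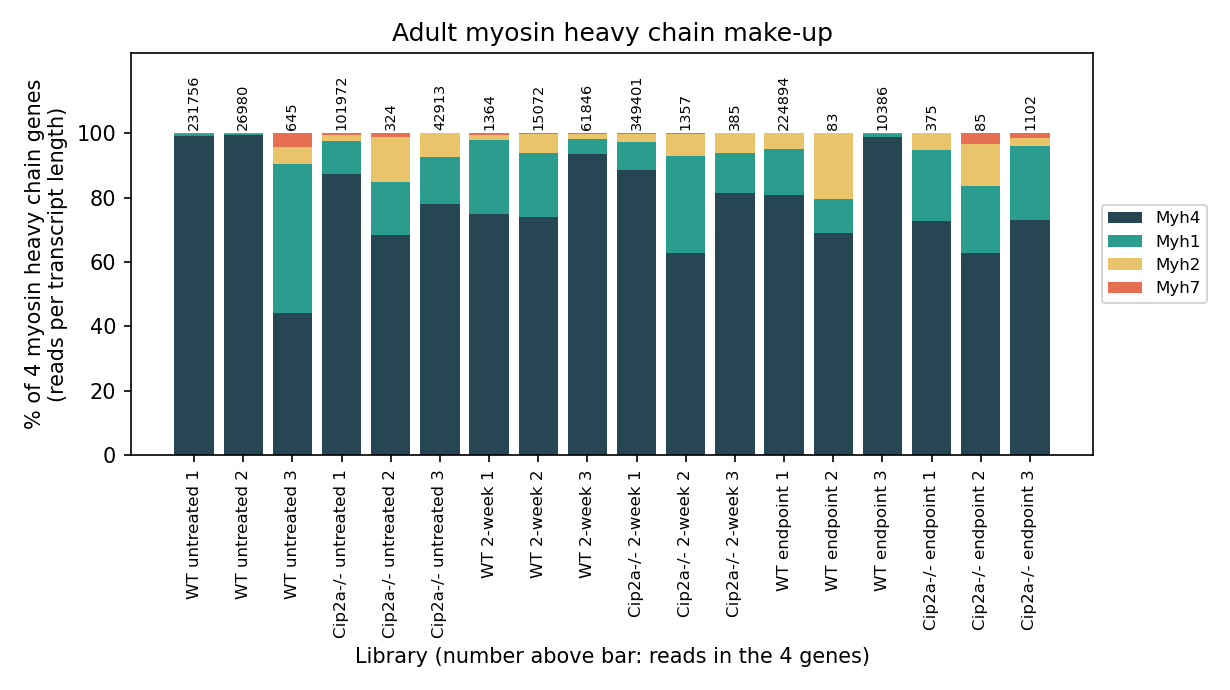
Make-up of the 4 adult myosin heavy chain genes in each library, in percent of their summed reads per transcript length; the number above a bar is the library's reads in the 4 genes. WT untreated libraries 1 and 2 and WT endpoint library 3 are almost entirely Myh4, WT untreated library 3 has nearly equal parts of Myh4 and Myh1, and the bars of WT endpoint library 2 and Cip2a-/- endpoint library 2 rest on 83 and 85 reads.

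Acta1, skeletal muscle actin and the core of the thin filament, had more reads per kb of transcript than any other of the 38 genes in 9 of the 18 glands. It had 7170.2, 1074 and 44.6 CPM in untreated, 34.1, 485 and 1149 CPM in 2-week and 7663, 10.5 and 815 CPM in endpoint WT glands. In Cip2a-/- glands it had 2637, 15.1 and 1396 CPM untreated, 12793, 63.1 and 31.2 CPM at 2 weeks and 21.3, 6.07 and 67.3 CPM at the endpoint. Each group except the endpoint Cip2a-/- glands held at least 1 gland above 100 CPM. Tnni2, the inhibitory troponin of fast fibres, had 1349, 197 and 3.66 CPM in untreated, 5.87, 80.1 and 238 CPM in 2-week and 1956, 1.59 and 85.6 CPM in endpoint WT glands. Its Cip2a-/- levels were 539, 1.87 and 301 CPM untreated, 2987, 8.09 and 2.51 CPM at 2 weeks and 2.96, 0.860 and 33.6 CPM at the endpoint. Tnni1, its slow counterpart, was low throughout. It had 1.17, 0.0558 and 0.166 CPM in untreated, 0.144, 0.651 and 1.05 CPM in 2-week and 0.444, 0.232 and 0.0632 CPM in endpoint WT glands. Its Cip2a-/- levels were 5.56, 0.440 and 0.116 CPM untreated, 5.07, 0.0423 and 0.0464 CPM at 2 weeks and 0.1003, 0.107 and 0.498 CPM at the endpoint.

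The slow troponins made up a small part of the troponin reads wherever muscle RNA was plentiful. Tnni1 was 0.0227% to 19.0% of Tnni1 plus Tnni2 reads over the libraries (median 0.913%), and Tnnt1 was 0.0653% to 27.5% of Tnnt1 plus Tnnt3, the tropomyosin-binding troponins (median 1.25%). For the calcium-binding pair, Tnnc1 was 0.0154% to 84.9% of Tnnc1 plus Tnnc2 (median 3.07%), and Myl2 was 0% to 6.67% of Myl2 plus Mylpf (median 0.376%). The highest slow shares came from glands with few fast reads: 45 Tnnc1 reads stood against 8 Tnnc2 reads in WT endpoint library 2, and 64 against 53 in Cip2a-/- endpoint library 1. Among glands rich in muscle RNA, Cip2a-/- untreated library 1 had the most slow reads, with 93 Tnni1 against 9025 Tnni2 reads (1.02%, exact 95% interval 0.824% to 1.25%). In WT endpoint library 1, with 30873 Tnni2 reads, there were 7 Tnni1 reads (0.0227%, 0.00911% to 0.0467%). The intervals of the 2 glands do not overlap. Neb, the ruler protein nebulin of the thin filament, ranged from 0.974 to 2407 CPM, Tnnt3 from 1.43 to 5909 CPM and Tnnc2 from 0.310 to 3008 CPM, each highest in Cip2a-/- 2-week library 1.

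Ttn encodes titin, the giant protein that spans from the Z disc to the M band. Its levels were 887, 158 and 5.43 CPM in untreated, 7.46, 106 and 258 CPM in 2-week and 1559, 0.503 and 114 CPM in endpoint WT glands. Ttn in Cip2a-/- glands had 784, 2.04 and 391 CPM untreated, 5780.3, 8.34 and 1.86 CPM at 2 weeks and 3.31, 0.322 and 3.49 CPM at the endpoint. Per 100 Acta1 reads, Ttn had 45.2 reads in Cip2a-/- 2-week library 1, the most of any gland, and 4.80 in WT endpoint library 2, the fewest. Of the Z disc genes, the fast fibre actinin Actn3 ranged from 1.51 to 3844 CPM, and Actn2, the actinin of all fibres, from 0.0928 to 353 CPM. Tcap, which caps titin at the Z disc, ranged from 0.215 to 619 CPM, Myoz1, a calcineurin-binding Z disc protein of fast fibres, from 0.0387 to 815 CPM, and Ldb3, a PDZ-LIM protein that binds actinin, from 6.49 to 1099 CPM. Nrap, which works in myofibril assembly, ranged from 0.269 to 684 CPM, and the small muscle protein Smpx from 0 to 159 CPM. Every one of these 7 genes was highest in Cip2a-/- 2-week library 1.

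Among the calcium handling genes, Atp2a1, the calcium pump of fast fibres, had the most reads per kb of transcript in all glands except Cip2a-/- 2-week library 3 and Cip2a-/- endpoint library 3, where Pvalb led, and endpoint library 2 of both genotypes, where Casq1 led. It had 7438, 1209 and 21.0 CPM in untreated, 35.0, 461 and 1356 CPM in 2-week and 11158, 2.52 and 501 CPM in endpoint WT glands. Its Cip2a-/- levels were 3132, 9.08 and 1473 CPM untreated, 14846, 28.8 and 10.8 CPM at 2 weeks and 8.82, 2.58 and 41.0 CPM at the endpoint. Pvalb, the calcium buffer parvalbumin of fast fibres, was below the pump in CPM in every gland. It took its largest share of the muscle reads in Cip2a-/- endpoint library 3. It had 1600.0, 229.9 and 3.82 CPM in untreated, 6.64, 83.4 and 318 CPM in 2-week and 1677, 0.348 and 63.8 CPM in endpoint WT glands. The Cip2a-/- values were 668, 1.93 and 212 CPM untreated, 3259, 7.07 and 3.43 CPM at 2 weeks and 0.953, 0.806 and 28.2 CPM at the endpoint. Trdn encodes triadin, which anchors calsequestrin to the ryanodine receptor. It had 103, 23.6 and 1.33 CPM in untreated, 1.35, 11.7 and 28.1 CPM in 2-week and 243, 0.0774 and 26.6 CPM in endpoint WT glands. Cip2a-/- glands had 76.3, 0.220 and 39.6 CPM untreated, 446, 1.02 and 0.418 CPM at 2 weeks and 0.401, 0.0537 and 1.77 CPM at the endpoint. In all 3 genes the highest of the endpoint Cip2a-/- glands was below the highest gland of every other group. Ryr1, the release channel, ranged from 0.967 to 1691 CPM, and Cacna1s, its voltage sensor, from 0.0537 to 482 CPM. Casq1, the calcium store protein calsequestrin, ranged from 2.42 to 1230.3 CPM.

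Ckm encodes muscle creatine kinase, which regenerates ATP from phosphocreatine. It had 5779, 913 and 10.9 CPM in untreated, 18.3, 268 and 971 CPM in 2-week and 6677, 0.929 and 29.1 CPM in endpoint WT glands. In Cip2a-/- glands it had 2033, 6.00 and 872 CPM untreated, 9288, 19.3 and 10.3 CPM at 2 weeks and 6.92, 1.24 and 32.7 CPM at the endpoint. WT endpoint library 3, which was high in Myh4 and Acta1, was thus near the low glands in Ckm. Ckmt2, the mitochondrial form, had 42.2, 4.97 and 0.332 CPM in untreated, 0.0963, 6.42 and 13.3 CPM in 2-week and 238, 0.0387 and 0.0632 CPM in endpoint WT glands. Its Cip2a-/- levels were 31.7, 0.110 and 17.1 CPM untreated, 308, 0.127 and 0.0928 CPM at 2 weeks and 0, 0 and 0.277 CPM at the endpoint. Ckmt2 took its largest share of the muscle reads in WT endpoint library 1. That gland also had 5835 CPM of Ucp1, the uncoupling protein of brown fat, and its 10 brown fat list genes summed to 7949 CPM against 30.8 to 800.5 CPM in the other 17 glands, so that brown fat markers and Ckmt2 were both high there; their part in the Ckmt2 level was not tested. In Cip2a-/- 2-week library 1, where Ckmt2 was highest, Ucp1 was at 28.8 CPM.

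Mb, the oxygen store myoglobin, had 21.2, 1.95 and 3.71 CPM in untreated, 3.80, 16.8 and 16.99 CPM in 2-week and 342, 10.4 and 180.2 CPM in endpoint WT glands. In Cip2a-/- glands it had 57.3, 3.41 and 47.3 CPM untreated, 344, 3.26 and 1.53 CPM at 2 weeks and 4.61, 3.81 and 7.69 CPM at the endpoint. All 3 endpoint WT glands were above all 3 endpoint Cip2a-/- glands for Mb, the only one of the 38 genes whose groups lay apart there; 5.28% of all genes tested did. Per 100 Ckm reads, Mb had 0.366 and 0.214 reads in WT untreated libraries 1 and 2 and 1.75 or more in every other gland. WT endpoint library 3, which like these 2 was almost all Myh4, had 620.0, the highest after the 1121 of WT endpoint library 2. Pgam2, the muscle phosphoglycerate mutase of glycolysis, had 326, 45.0 and 1.66 CPM in untreated, 1.54, 20.5 and 55.2 CPM in 2-week and 475, 0.310 and 23.6 CPM in endpoint WT glands. Its Cip2a-/- levels were 125, 0.550 and 58.9 CPM untreated, 694, 1.65 and 0.510 CPM at 2 weeks and 1.00, 0.322 and 3.71 CPM at the endpoint. The muscle enolase Eno3 and the glycogen phosphorylase Pygm ranged from 16.995 to 2613 CPM and from 5.11 to 3567 CPM.

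WT endpoint library 3 differed from the other 17 glands in which muscle genes it held, and it was singled out after its values were seen. Of the 64579 reads it had in the 38 genes, Acta1 took 19.97%, against 3.41% to 15.8% in the other glands. Ckm had 3.57 reads per 100 Acta1 reads, against 8.86 to 87.1 in the others, and 5.80 per 100 Atp2a1 reads, against 36.9 to 94.8. Mybpc2 had 0.481 reads per 100 Acta1 reads, against 10.1 to 27.6, and Casq1 had 0.618 per 100 Atp2a1 reads, against 6.72 to 402. Relative to the other muscle genes, the gland was thus rich in actin and poor in creatine kinase, the fast myosin binding protein C and calsequestrin, while Atp2a1, at 12.3% of the muscle reads, lay within the range of the others (1.45% to 15.7%). In all, 13 of the 38 genes had a share of the muscle reads outside the range of the other 17 glands. Above it were Acta1, Actn3, Nrap, Ryr1, Cacna1s, Tcap, Smpx and Trdn, and below it were Mybpc2, Casq1, Eno3, Pygm and Ldb3. Actn3 took 8.71%, against 0.874% to 6.01%, and Cacna1s 1.51%, against 0.0301% to 0.550%. Cip2a-/- endpoint library 2 had 20 genes outside the range of the others, but on 3317 muscle reads, and the remaining 16 glands had 0 to 7. By Spearman's rank correlation of these shares with the median of the other glands, WT endpoint library 3 was not the most different, at 0.781. WT endpoint library 2, on 3139 muscle reads, was at 0.692 and Cip2a-/- endpoint library 2 at 0.775.

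**Figure D4:**
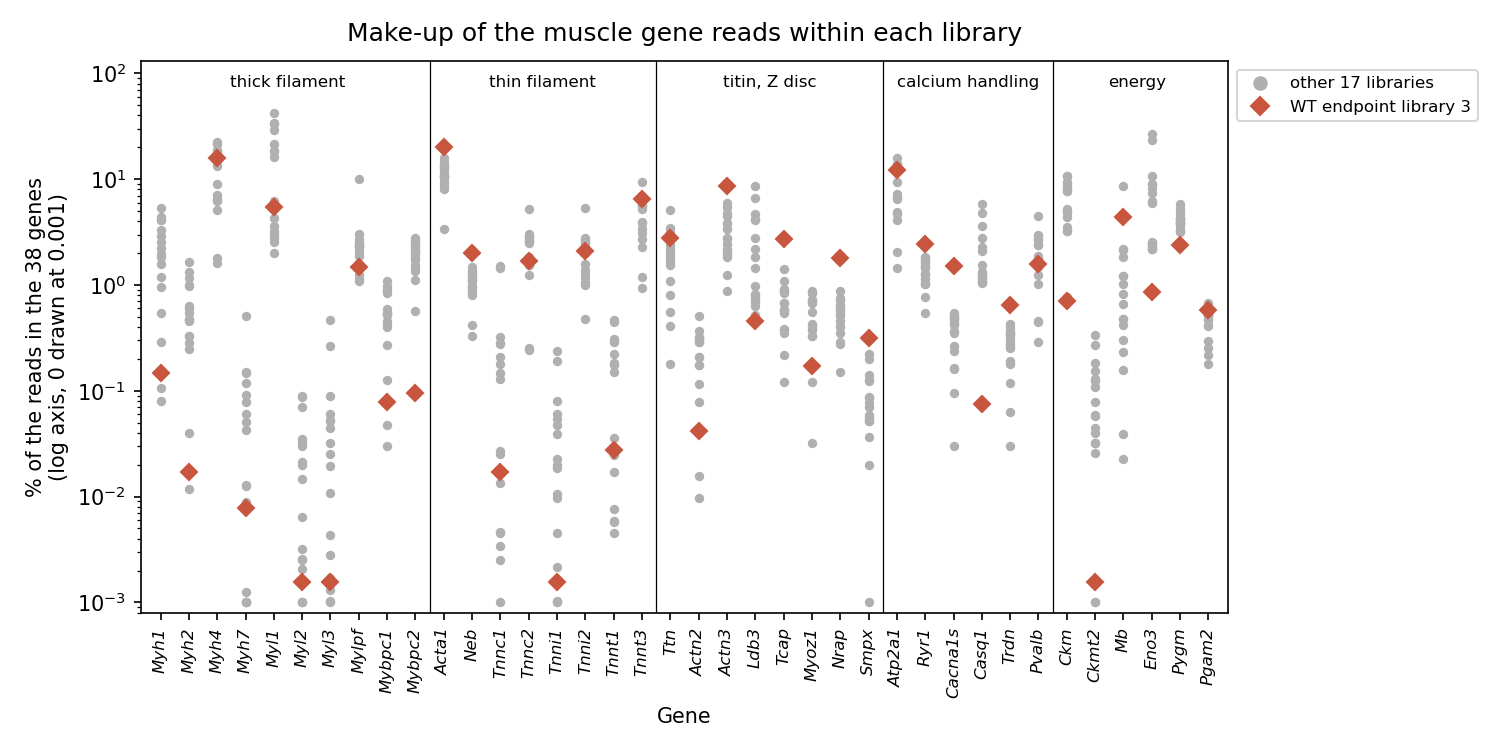
Share of the reads in the 38 genes that each gene took, in percent on a log axis, with 0 drawn at 0.001; WT endpoint library 3 is shown as diamonds and the other 17 libraries as grey points. The diamond lies above the grey points for Acta1 (19.97%), Actn3 (8.71%) and Cacna1s (1.51%) among others, and below them for Mybpc2 (0.0960%), Casq1 (0.0759%) and Eno3 (0.853%).

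Some genes of muscle formation and of the nerve contact were highest in the same gland, and others were low there. Myog, a transcription factor of muscle differentiation, was at 15.5 CPM from 245 reads, against at most 6.31 CPM in the other glands, and Myf6, of the same family, was at 55.7 CPM against at most 29.4 CPM. Chrng, the gamma subunit of the fetal acetylcholine receptor, had 33 reads (2.09 CPM) there and at most 1 read elsewhere. Chrnd, the delta subunit, was at 13.3 CPM from 211 reads against at most 1.01 CPM, while Chrne, the subunit of the adult receptor, had 0 reads there and 84 reads in Cip2a-/- 2-week library 1. In all, 4 of 11 genes on the list of muscle formation were highest in this gland, namely Myf5, Myog, Myf6 and Chrng. Myf5 was so on only 8 reads, against at most 6 reads in any other gland. The 2 of 10 nerve contact genes highest there were Chrna1 and Chrnd. Of the other nerve contact genes, Ache, acetylcholinesterase, was lower there than in any other gland, at 2.59 CPM against 2.91 to 13.97 CPM, and Lrp4, the agrin receptor, was at 6.64 CPM against a median of 10.1 CPM. The 10 nerve contact genes summed to 88.0 CPM, below the 113 CPM of Cip2a-/- 2-week library 1 and the 98.9 CPM of WT endpoint library 1. The embryonic and perinatal heavy chains were low: Myh3 had 0 reads and Myh8 had 3. Cip2a-/- 2-week library 1, with far more muscle RNA, was highest for 5 of the 11 genes of muscle formation. The 10 white fat list genes also had their highest sum in WT endpoint library 3, at 69725 CPM against 14986 to 51680 CPM in the other glands. Their part in the muscle gene make-up was not tested.

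The question of the design is whether loss of Cip2a, DMBA or their combination changed these genes. By edgeR's quasi-likelihood test over all 15482 genes with Benjamini-Hochberg adjustment, 0 of the 38 genes passed an adjusted p of 0.05 in any of 9 comparisons, and limma-voom also gave 0. In the untreated and the 2-week comparison of genotypes, and in those of 2 weeks against untreated in WT and in Cip2a-/- glands, the groups overlapped for all 38 genes, while 12.4%, 13.2%, 25.8% and 12.4% of all genes did not overlap. DESeq2 called members in 3 of the 9, given below. The comparisons share groups, so their values are not independent. Markers of other tissues moved with some of the comparisons. The 10 B cell genes had a median log2 fold change of 4.33 for Cip2a-/- against WT at 2 weeks (10 of 10 positive) and of -5.14 at the endpoint (0 of 10 positive), and the 6 tested lymph node stroma genes of 3.14 and -3.25; edgeR called none of either list. Summed B cell levels ran from 5.01 to 7.08 CPM in WT and from 1.51 to 300.02 CPM in Cip2a-/- glands at 2 weeks, and from 5.53 to 2388 CPM in WT and from 6.45 to 57.5 CPM in Cip2a-/- glands at the endpoint. No B cell gene was at 0 in a whole group, while Ccl21a of the stroma list was at 0 in all groups. WT endpoint library 1, rich in muscle RNA, had the highest B cell sum and the lowest mammary epithelium sum, at 38.3 CPM against 614 to 4281 CPM elsewhere. Cip2a-/- 2-week library 1, the richest in muscle RNA, had the lowest B cell sum. The part of these markers, and of the brown fat markers given above, in the comparisons was not tested.

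In untreated glands, Cip2a-/- against WT, 0 of 38 genes were called, beside 0% of all genes, and 0 had an unadjusted p under 0.05, beside 2.27% of all genes. The 38 genes had a median log2 fold change of -0.55, against 0.04 for all genes, with 14 positive and 24 negative. The smallest p-values were those of Myh2 (log2 fold change 3.62 ± 2.48 SE), Tnnc1 (1.67 ± 1.16 SE) and Myh1 (3.63 ± 2.52 SE), each with an edgeR adjusted p of 1. The 6 slow fibre genes were all positive, with a median of 2.05, and the 14 fast fibre genes had a median of -0.92 with 2 positive. Without WT untreated library 1, the gland of its group with the most muscle RNA, the median of the 38 genes was 1.70 and that of the fast genes 1.28. Without Cip2a-/- untreated library 1, where the slow genes summed to 67.8 CPM and those of untreated Cip2a-/- libraries 2 and 3 to 2.81 and 3.82 CPM, the median of the slow genes was -0.68.

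At 2 weeks after DMBA, Cip2a-/- against WT, all 38 fold changes were positive and none passed: 0 of 38 were called beside 0.00646% of all genes, and 0 had an unadjusted p under 0.05 beside 2.44%. The median was 2.95 against 0.04 for all genes. Mb (3.21 ± 1.70 SE), Smpx (4.14 ± 2.38 SE) and Actn2 (4.18 ± 2.41 SE) had the smallest p-values, with an edgeR adjusted p of 1.00. These values rest on 1 gland: without Cip2a-/- 2-week library 1, the median was -4.12, and by limma-voom with all glands it was -0.57. Without that gland Mb was at -2.37, Smpx at -3.88 and Actn2 at -3.02.

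At the endpoint, Cip2a-/- against WT, 37 of 38 fold changes were negative, with a median of -6.40 against -0.02 for all genes. By edgeR 0 of 38 were called, beside 0.00646% of all genes, and 21 were lower at an unadjusted p under 0.05, beside 6.67% of all genes. The 21 were the heavy chains Myh1, Myh2 and Myh4, the binding proteins Mybpc1 and Mybpc2, the filament genes Acta1, Ttn and Neb, the Z disc genes Actn2, Actn3, Nrap, Tcap and Smpx, the calcium genes Atp2a1, Ryr1, Cacna1s and Trdn, and Ckmt2, Mb, Pygm and Pgam2. Mb (-5.05 ± 1.86 SE), Myh2 (-7.78 ± 3.06 SE) and Smpx (-7.13 ± 2.88 SE) had the smallest p-values, with an edgeR adjusted p of 0.458. DESeq2 called 3 of the 38: Myh2 at -7.77 (adjusted p = 0.0370), Ttn at -7.86 (adjusted p = 0.0489) and Ckmt2 at -9.74 (adjusted p = 0.0497), beside 89 of 15772 genes tested. These calls did not hold with 1 library fewer: without WT endpoint library 1, DESeq2 gave Ckmt2 0.86, Myh2 0.63 and Ttn -4.60, each at an adjusted p of 1, and the calls were also lost without Cip2a-/- endpoint libraries 1 or 2 for all 3 genes and without Cip2a-/- endpoint library 3 for Myh2 and Ttn. Ckmt2 had 1 read in each of WT endpoint libraries 2 and 3. Without WT endpoint library 1, which held 6.35% muscle reads and the brown fat markers, the median was -1.35, Mb was at -4.19, Smpx at -4.82 and Myh2 at 0.59.

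Over time in WT glands, 2 weeks against untreated gave 0 of 38 called, beside 0% of all genes, and 0 at an unadjusted p under 0.05, beside 4.23%. The median was -1.71 against -0.02 for all genes, with 10 positive and 28 negative, and it was 0.25 without WT untreated library 1. Tcap (-2.78 ± 2.43 SE), Eno3 (-2.05 ± 1.91 SE) and Pygm had the smallest p-values, at an edgeR adjusted p of 0.953. In Cip2a-/- glands the same comparison gave 0 of 38 called, beside 0.0129%, and 0 at an unadjusted p under 0.05, beside 4.53%. The median was 1.60 against 0.00, with 33 positive, but -5.72 without Cip2a-/- 2-week library 1 and -1.14 by limma-voom. Ldb3 (2.12 ± 1.84 SE), Mb (1.69 ± 1.60 SE) and Myl1 (1.60 ± 1.53 SE) came first, at an edgeR adjusted p of 0.920.

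Endpoint against untreated gave 0 of 38 called in WT glands, beside 0.0323% of all genes, and Mb alone was higher at an unadjusted p under 0.05, beside 6.58%. The median was 0.37 against 0.08, and Mb was at 4.30 ± 1.79 SE (edgeR adjusted p = 0.376), Myh2 at 4.83 ± 2.62 SE (0.476) and Actn2 at 4.43 ± 2.46 SE (0.484). Without WT endpoint library 1, the median was -3.08, Mb was at 3.39, Myh2 at -3.60 and Actn2 at -1.83, and without WT untreated library 1 the median was 2.51. By limma-voom with all glands it was -0.75. In Cip2a-/- glands, 0 of 38 were called, beside 0%, while Myh2, Ttn, Neb, Nrap, Ryr1 and Cacna1s, 6 genes, had an unadjusted p under 0.05, each lower at the endpoint, beside 14.6% of all genes in either direction. All 38 fold changes were negative, with a median of -5.26 against -0.04. Ttn was at -7.37 ± 3.22 SE (edgeR adjusted p = 0.325), Ryr1 at -6.33 ± 2.80 SE (0.328) and Myh2 at -6.57 ± 2.92 SE (0.328). DESeq2 called 1 of the 38, Ttn at -7.36 (adjusted p = 0.0414), beside 277 of 15041 genes tested. The call was kept without Cip2a-/- endpoint library 1 and lost without any 1 of the other 5 libraries, at -7.95 to -6.35.

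The difference between genotypes in the change from untreated was tested as an interaction. At 2 weeks, 0 of 38 genes were called, beside 0%, and 0 had an unadjusted p under 0.05, beside 2.90%, with a median of 3.67 against -0.01. Myl1 (3.12 ± 2.169 SE), Ldb3 (3.70 ± 2.58 SE) and Eno3 (3.74 ± 2.69 SE) came first, at an edgeR adjusted p of 0.999, and the median was -3.79 without Cip2a-/- 2-week library 1 and -0.37 by limma-voom. At the endpoint, 0 of 38 were called, beside 0%, and Actn2, Myh1, Myh2, Mybpc1, Mb and Smpx, 6 genes, were lower at an unadjusted p under 0.05, beside 6.79%. The median was -5.67 against -0.06, and -1.61 without WT endpoint library 1. Myh2 was at -11.40 ± 3.92 SE, Mb at -7.04 ± 2.45 SE and Myh1 at -10.38 ± 3.85 SE, at an edgeR adjusted p of 0.490. DESeq2 called 1 of the 38, Myh2 at -11.40 (adjusted p = 0.0417), beside 34 of 16899 genes tested. Myh2 was not called without WT endpoint library 1 (-3.00), WT untreated libraries 2 or 3, or Cip2a-/- endpoint library 2.

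**Figure D5:**
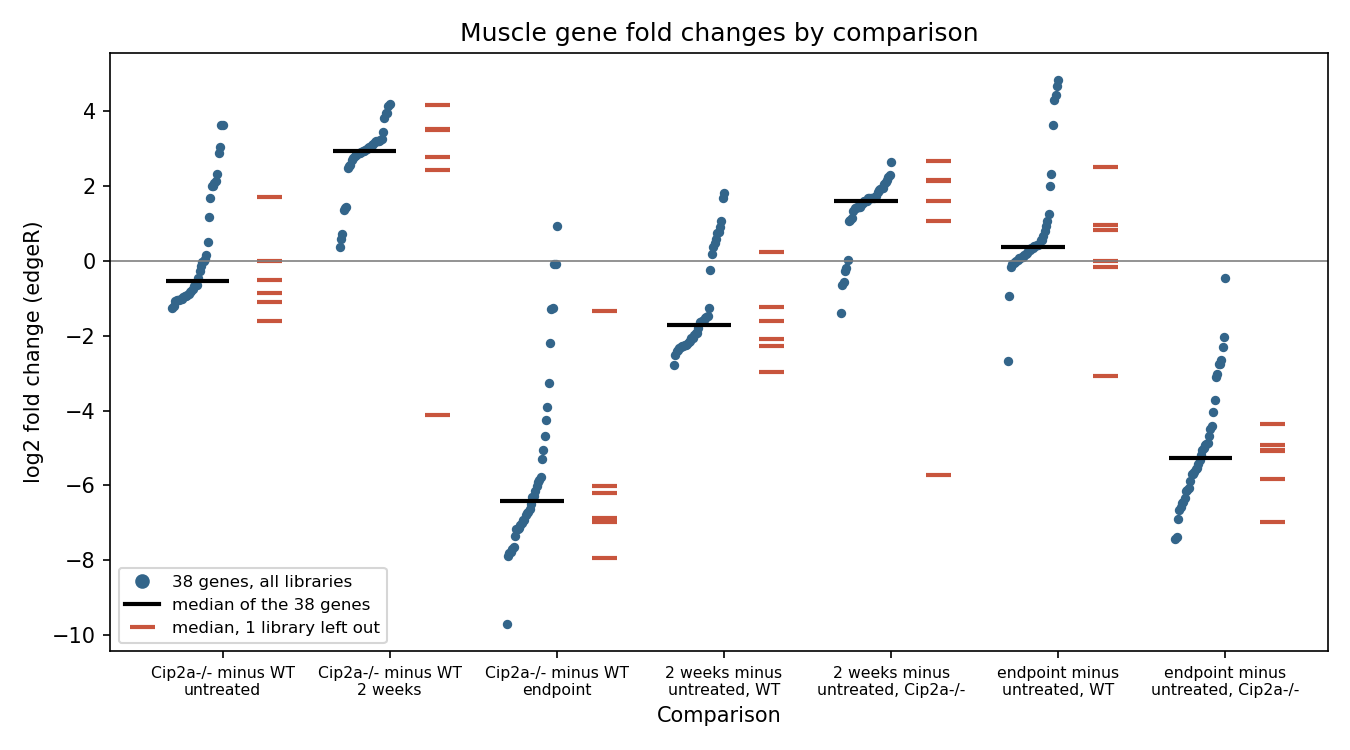
Log2 fold change of each of the 38 genes (blue points) in the 7 pairwise comparisons, with their median in black and, in red, the medians after leaving out 1 library at a time. The red marks cross 0 for Cip2a-/- against WT in untreated and 2-week glands and for 3 of the 4 comparisons over time, and stay below 0 for Cip2a-/- against WT at the endpoint (-7.93 to -1.35) and for endpoint against untreated Cip2a-/- glands (-6.99 to -4.35).

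The list of other skeletal muscle genes, chosen like the 38 with earlier results known, had 0 of 61 called by edgeR in any comparison. Their median was -0.30 in untreated, 3.09 in 2-week and -4.68 in endpoint Cip2a-/- against WT glands, with 22, 60 and 1 of 61 positive.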

How the data were processed

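RNA was extracted with a NucleoSpin RNA kit and sequenced as TruSeq Stranded mRNA libraries, per the labels' protocols. The authors deposited 1 table of raw counts per gene for the 18 libraries; the submitters' processing notes name bcl2fastq 2.17, STAR 2.5.2b, Subread 1.5.1 and the mm10 genome, while the sources used here give no strand or multi-mapping setting. Groups were taken from the labels. The 38 genes and all gene lists were chosen with earlier results of these data known. Counts were filtered with edgeR's filterByExpr (minimum count 10, minimum total 15), which left 15482 of 23337 genes, and fitted with edgeR 4.0.16 (R 4.3.3): TMM scaling, 1 term per group over all 18 libraries, quasi-likelihood tests and Benjamini-Hochberg adjustment over all genes tested. On simulated data for Cip2a-/- against WT at 2 weeks (15482 genes), the test recovered 82.5% of 200 genes changed 4-fold; these were drawn from less variable genes than most of the 38, so the share does not hold for the latter. CPM used the TMM-scaled counts in tested genes, and levels per kb used the principal GENCODE transcript. Shares carry exact 95% intervals. Named genes were 16 chosen for full values, the 3 with the smallest p in each comparison, and the 12 other genes most correlated with the 38, of which 1 is not reported here. Alternatives were DESeq2 1.42.0, limma-voom (limma 3.58.1), no low-count filter, other scaling, a replicate block and leaving out each library, to which DESeq2 and the slow and fast gene medians were added after seeing the data. Replicate numbers did not pair the samples.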

Additional observations from a re-analysis of the deposited data

How the results depend on the processing

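The number of the 38 genes called by edgeR was 0 in all 9 comparisons and after leaving out any 1 library. DESeq2 called 3 for Cip2a-/- against WT at the endpoint, beside 89 of 15772 genes tested. It called 1 for endpoint against untreated Cip2a-/- glands, beside 277 of 15041 genes, and 1 for the endpoint interaction, beside 34 of 16899 genes. Under limma-voom the median log2 fold change was -3.14 for Cip2a-/- against WT at the endpoint and -0.37 for the 2-week interaction. It also put Mb at -0.26, Smpx at -0.54 and Actn2 at -0.59 for Cip2a-/- against WT at 2 weeks, and Ldb3 at -0.60 and Mb at -1.22 for 2 weeks against untreated in Cip2a-/- glands. The cause of these shifts was not tested. Samples with the same replicate number did not deviate together (median r -0.03 over 45 pairs, against -0.00 over 90 pairs with different numbers), and with the replicate block the median was -2.15 for the endpoint interaction and Actn2 was at -0.024 for Cip2a-/- against WT at 2 weeks. The block also put the median at -0.68 for that comparison and at -0.95 for endpoint against untreated WT glands. Without scaling by transcript length, the mean Myh4 share of endpoint Cip2a-/- libraries 1 and 3 was 72.6% in place of 72.8%. Library 2 of that group, with 85 heavy chain reads, was left out of this mean.

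Leaving out 1 library at a time moved the median from -1.59 to 1.70 (untreated), -4.12 to 4.17 (2 weeks) and -7.93 to -1.35 (endpoint) for Cip2a-/- against WT. Over time it ran from -2.97 to 0.25 (WT, 2 weeks), -5.72 to 2.67 (Cip2a-/-, 2 weeks), -3.08 to 2.51 (WT, endpoint) and -6.99 to -4.35 (Cip2a-/-, endpoint), and for the interactions from -3.79 to 4.75 and -8.06 to -1.61. Of single genes, Tnnc1 ran from -0.48 to 2.36 in untreated glands. In Cip2a-/- against WT, Mb ran from -2.37 to 3.78, Smpx from -3.88 to 5.21 and Actn2 from -3.02 to 4.76 at 2 weeks, and Myh2 from -8.36 to 0.59 at the endpoint. Over time, Ldb3 ran from -3.61 to 2.88, Mb from -3.89 to 2.26 and Myl1 from -2.24 to 2.41 in Cip2a-/- glands, and Myh2 from -3.60 to 7.28 and Actn2 from -1.83 to 6.33 in WT glands at the endpoint. In the 2-week interaction Myl1 ran from -0.68 to 4.04, Ldb3 from -1.99 to 4.61 and Eno3 from -1.62 to 4.805. Chosen after seeing the data, DESeq2 without each library put its called values at the endpoint between -26.9 and 0.86 for Ckmt2 and between -8.35 and 0.63 for Myh2; the lowest Ckmt2 value is a fit to Cip2a-/- glands at 0 reads and no bound. With 3 libraries a group and a median within-group SD of 3.88 on the log2 scale, a median log2 fold change of -6.40 at the endpoint passed for no gene by edgeR.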
